A study of Mus musculus with 6 samples.

Results

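Peaks of capped 5′ ends that spanned 10 bp or less, called narrow promoters here, were described in 6 CAGE libraries of Ba/F3 cells. They were chosen by width alone, as peaks whose listed end minus start was 10 bp or less, outside chrM and chrY. The list held 42843 of them among 158966 peaks, and 1464 were measured, meaning that they reached 1 CPM (the deposited unit, tags scaled to a fixed total per library) in 3 or more libraries. In all, 19162 peaks were measured, of which 17698 were wider. The width rule itself used no level or difference, though it was set with earlier results of these data known. The measured ones were then taken by level, and 82 of the 1464 reached that level in libraries of 1 group only. Ba/F3 is a mouse pro-B cell line that lives without its usual cytokine once it carries an active kinase. In 3 libraries the cells carried FLT3-ITD, the receptor tyrosine kinase FLT3 with an internal tandem duplication, and in 3 they carried FLT3-ITD with D835Y, a substitution in the activation loop of the same kinase (FLT3-ITD/D835Y below). All were grown in serum-containing medium, with no other treatment in the labels. The titles set the groups, since a second label gives a residue number that differs from sample to sample in the second group. The labels do not give the vector or promoter behind the receptor, nor whether a line was 1 clone or the replicates were separate cultures, and the p-values below rest on variation among these 6 libraries that may be technical alone.

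Animal promoters differ in how tightly the start of transcription is fixed. At focused promoters, RNA polymerase II starts within a few bases, often at an initiator element and at a set distance from a TATA box, while dispersed promoters, common at CpG islands of housekeeping genes, start over many positions. Replication-dependent histone genes and ribosomal protein genes are known for focused starts. Narrow peaks can also be minor starts beside a main promoter, or small groups of capped ends away from any gene start.

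The libraries held between 5884258 and 13977941 tags, so that 1 tag was worth 0.0715 to 0.170 CPM and 3 tags, the limit that a count of 0 allows, 0.215 to 0.510 CPM. These limits and the intervals below cover counting error only. The deposited tables name peaks by position and strand, and the gene and sequence tables at hand follow another build (GRCm38.p6) than the mouse build in the submitters' notes (mm9). No gene is therefore named, no sequence is printed, and B-cell markers were not checked. Coordinates are as deposited. The sources used here do not say whether starts count from 0 or 1, and the smallest width was 1 bp.

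Narrow promoters were mostly weak, and a few were among the most active in the cells. Of the 42843 listed, 8998 had a tag in any library and 3.42% were measured. Of the 115844 wider peaks, 45472 (39.3%) had a tag and 15.3% were measured. The median level of the measured ones was 3.42 CPM (quartiles 1.65 and 19.2), against 6.12 CPM (2.16 and 23.2) for the wider ones. A level under 2 CPM was found at 32.9% of them and at 22.8% of the wider peaks. At the other end, 200 narrow promoters (13.7%) reached 100 CPM, against 6.66% of the wider ones, and 75 (5.12%) reached 1000 CPM, against 80 (0.452%). Of the 155 peaks of the data at that level, 75 were thus narrow. The narrow set has more peaks at both ends of the scale and fewer in the middle.

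**Figure D1:**
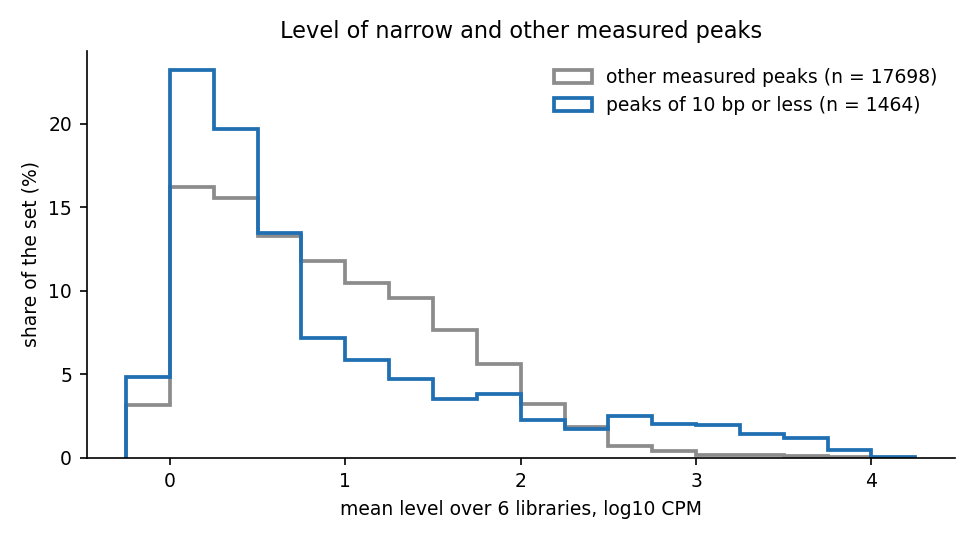
Share of narrow promoters (1464, blue) and of wider measured peaks (17698, grey) at each mean level over the 6 libraries, on a log10 CPM axis. The narrow set has the larger share under 2 CPM (32.9% against 22.8%) and again at 100 CPM and more (13.7% against 6.66%).

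Few promoters carried most of the narrow set's tags. The single most active one held 4.27% of them, the 10 most active 25.4%, the 50 most active 67.7% and the 200 most active 95.8%. The 482 narrow promoters under 2 CPM held 0.229%. Chromosome 13 held 71 of the measured narrow promoters but 23.4% of their tags, and chromosome 3 followed with 7.49%. Of the 75 promoters at 1000 CPM or more, 13 lay on chromosome 13.

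Narrow promoters were 7.64% of the measured peaks and held a far larger share of the tags. Narrow promoters, measured or not, took 29.7%, 30.2% and 28.4% of the tags in the FLT3-ITD libraries and 29.1%, 26.6% and 29.4% in the FLT3-ITD/D835Y libraries. The groups overlapped, at 29.4% ± 0.93 and 28.4% ± 1.5 (SD, n = 3 each), a difference of -1.09 percentage points that was within the SD of the second group. With chromosome 13 left out the difference turned to 0.43 points (21.9% ± 1.0 and 22.4% ± 1.0), and with a limit of 5 bp in place of 10 to 0.085 points. On chromosome 13 alone, narrow promoters took 7.18%, 7.63% and 7.67% in FLT3-ITD and 6.15%, 5.41% and 6.39% in FLT3-ITD/D835Y, where the groups did not overlap. FLT3-ITD/D835Y replicate 2 had the smallest share of tags in narrow promoters and the largest in peaks over 60 bp, 16.3% against 14.4% to 14.8% in the other 5 libraries. Without it the difference was -0.21 points.

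**Figure D2:**
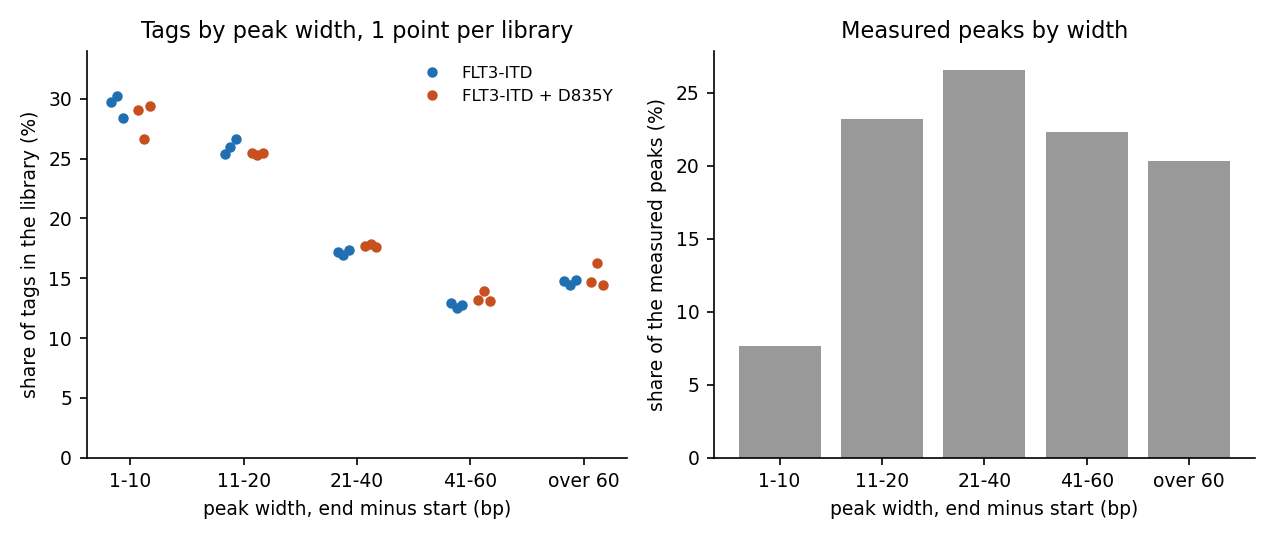
Left, share of each library's tags by width class of the peak, with 1 point per library (FLT3-ITD in blue, FLT3-ITD + D835Y in orange). Right, share of the 19162 measured peaks in each class: the narrowest class holds 7.64% of the peaks and 26.6% to 30.2% of the tags.

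The 10 most active narrow promoters lay between 4901 and 12297 CPM on average. The first, on the plus strand at chr13:23673432-23673438, stood at 14884, 15798 and 17156 CPM in FLT3-ITD and at 8912, 7967 and 9065 CPM in FLT3-ITD/D835Y. All 3 libraries of the second group were below all 3 of the first, by -0.88 on the log2(CPM + 1) scale used for all differences here (SE 0.11, limma adjusted p = 8.5e-05). At chr13:23622952-23622957, plus strand, there were 7371, 8533 and 7321 CPM in FLT3-ITD and 4929, 3968 and 5348 CPM in FLT3-ITD/D835Y, a fall of -0.71 (SE 0.13, limma adjusted p = 0.0014). The minus-strand promoter at chr5:143668400-143668405 varied least, with 7749, 7683 and 7668 CPM in FLT3-ITD and 5696, 5978 and 5617 CPM in FLT3-ITD/D835Y. It fell by -0.42 (SE 0.10, limma adjusted p = 0.0079). Tested against a fold of 1.5 rather than against no change, none of these 3 passed (limma adjusted p = 0.19 for the first and 1.0 for the others, the highest over 16 refits of each, the lowest being 2.6e-22, 4.8e-13 and 0.00011).

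The other 7 of the 10 did not pass. The minus-strand promoter at chr13:21902059-21902069, the second most active, had 9580 ± 953 CPM in FLT3-ITD and 8791 ± 369 CPM in FLT3-ITD/D835Y (SD, n = 3 each; limma adjusted p = 0.45). The minus-strand promoter at chr3:96042904-96042908 had 8803 ± 1281 and 7906 ± 919 CPM (adjusted p = 0.42). The plus-strand promoter at chr3:96073618-96073626 had 6797, 6747 and 7841 CPM against 6016, 5006 and 6409 CPM, so its groups did not overlap, yet the difference of -0.30 missed the threshold (limma adjusted p = 0.086). It passed only when peaks were not filtered by level (0.013, the lowest over 16 refits, the highest being 1.0). At chr14:106081041-106081048, plus strand, there were 6622 ± 1001 and 6483 ± 442 CPM, and at chr7:52580310-52580313, plus strand, 5117 ± 512 and 4686 ± 290 CPM. The other 2 were the minus-strand promoters at chr13:21924063-21924067 (6822 ± 326 and 6725 ± 973 CPM) and chr13:21842404-21842412 (5605 ± 869 and 5578 ± 396 CPM). These last 2 and the one on chromosome 14 changed sign between refits, so no direction is given for them.

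The narrow promoters of chromosome 13 at that level did not move as one. Of the 13 at 1000 CPM or more, 5 fell and 1 rose (limma, adjusted p under 0.05). Among the wider peaks of chromosome 13 at any level, 20.4% fell and 6.12% rose, and among wider peaks of 1000 CPM or more on any chromosome 17.5% fell and 10% rose. Besides the pair given above, the promoters that fell were at chr13:23643531-23643541, minus strand (5458 ± 179 and 3181 ± 705 CPM), at chr13:23663251-23663261, plus strand (5417 ± 403 and 3505 ± 76 CPM), and at chr13:23830673-23830678, plus strand (3218 ± 58 and 2553 ± 223 CPM). A rise was found at chr13:21809495-21809500, plus strand, where 2725 ± 273 CPM became 3411 ± 133 CPM (SD, n = 3 each) with an adjusted p of 0.043 (limma). These 4 lay outside the rule for named promoters and were given after their values were seen. The 13 lay between start 21809495 and end 98530588, and the 5 falls between start 23622952 and end 23830678. In that stretch chr13:23790324-23790329, minus strand, was lower too but missed the threshold (-0.29, limma adjusted p = 0.065). The stretch is bounded by the falls themselves. The next of the 13 beyond it, chr13:23844210-23844220, plus strand, did not pass (-0.083, limma adjusted p = 0.62). The 1 rise lay among the promoters between start 21809495 and end 21924067, where no fall passed. These positions, too, were set out after the values were seen. Together the 13 held 6.58% of all tags of the data. Peaks in near-identical copies of a sequence can share tags, and the sources used here do not say how such tags were assigned.

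Within the narrow set, the narrowest peaks had the highest median level and the largest share at 100 CPM or more. The 283 measured peaks of 1 to 3 bp had a median of 13.1 CPM and 27.2% of them reached 100 CPM. The 401 peaks of 4 to 6 bp had a median of 3.72 CPM (14.96% at 100 CPM), and the 780 peaks of 7 to 10 bp a median of 2.78 CPM (8.08%). At 1000 CPM or more this order did not hold, with 18 of the 283, 31 of the 401 and 26 of the 780 peaks. At a width of 1 bp the median was 28.7 CPM, over 95 peaks. Just inside the limit, the 173 peaks of 10 bp had a median of 2.68 CPM and 10.98% reached 100 CPM. Just outside it, the 946 peaks of 11 bp had a median of 2.67 CPM and 1.90% reached 100 CPM. The medians on either side of the limit were thus close, and the highly active peaks were not. In the 1 to 3 bp class 20.1% of peaks changed between the groups, in the 4 to 6 bp class 26.7%, and in the 7 to 10 bp class 21.8%, beside 24.4% of all measured peaks.

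Narrow promoters fell into 3 kinds by what lay near them on the same strand. Over 500 bp, 757 (51.7%) had no other measured peak, 173 (11.8%) were the most active of a group, and 534 (36.5%) lay beside a more active peak. Those standing alone had a median of 5.96 CPM and held 87.9% of the narrow set's tags, including 67 of the 75 promoters at 1000 CPM or more. Those beside a more active peak had a median of 2.00 CPM and held 0.786% of the tags, and 0 of them reached 100 CPM. Among wider peaks 47.3% stood alone and held 64.0% of that set's tags, 22.7% were the most active of a group and 30.0% lay beside a more active peak. Of the 707 narrow promoters with a neighbour, the nearest lay at a median of 42 bp and was itself narrow in 41 cases. For the 9324 wider peaks with a neighbour the median was 44 bp, and the nearest was narrow in 630 cases. A measured peak on the opposite strand within 500 bp was found for 13.5% of narrow promoters and 22.0% of wider peaks. The strands were even, with 734 on the plus and 730 on the minus strand.

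Replicates differed more at narrow promoters than at wider peaks of like level, mainly where the level was high. The spread was taken as the SD of log2(CPM + 1) within groups, pooled over both. Its median was 0.26 for narrow and 0.24 for wider peaks under 2 CPM, 0.25 and 0.23 at 2 to 5 CPM, 0.22 and 0.19 at 5 to 20 CPM, 0.20 and 0.15 at 20 to 100 CPM, and 0.20 and 0.13 at 100 CPM and more. In the last class the narrow promoters were also more active (median 619 against 181 CPM). Split at 1000 CPM, the medians were 0.20 and 0.13 below and 0.18 and 0.13 above, where the levels were nearer (2514 and 2273 CPM). These are descriptions, with no test.

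**Figure D3:**
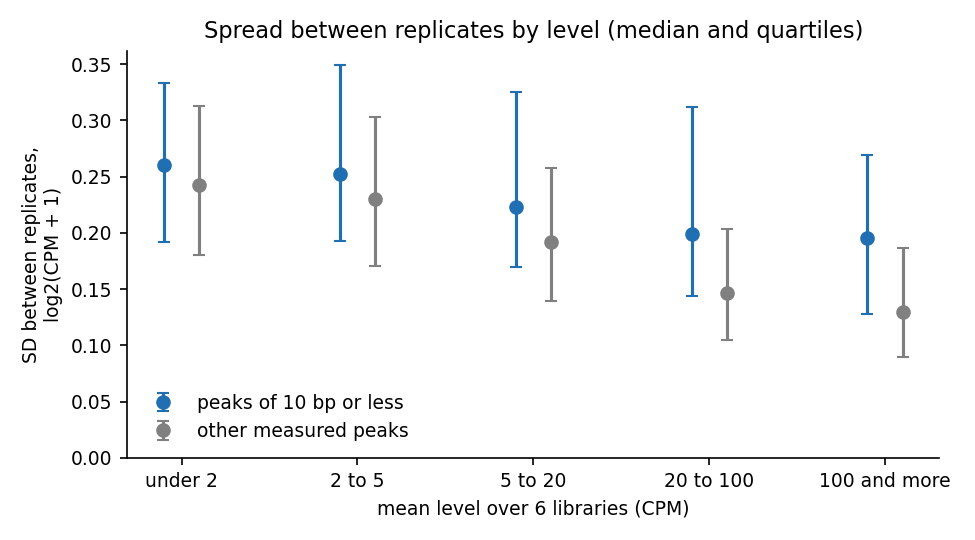
SD of log2(CPM + 1) between replicates for narrow promoters (blue) and wider measured peaks (grey) in 5 classes of mean level. Points are medians and bars run from the lower to the upper quartile; the narrow set's median is the higher one in each class.

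The larger spread was present in both groups and in each library. At 20 CPM and more, the median SD of the 362 narrow promoters was 0.16 within FLT3-ITD and 0.19 within FLT3-ITD/D835Y, against 0.098 and 0.15 for 4864 wider peaks. The median distance of a narrow promoter from its group mean was 0.092 to 0.19 over the 6 libraries, largest in FLT3-ITD/D835Y replicate 2, against 0.062 to 0.15 for wider peaks, largest in the same library. In that library the narrow promoters lay below their group mean by a median of -0.099 and the wider peaks above theirs by 0.087. Without that library the medians were 0.15 and 0.098 in place of 0.20 and 0.14. After each library was centred on the median of its set, that of the narrow set was still 0.20. An SD above 0.5 was found at 24 narrow promoters (6.63%) and at 1.56% of the wider peaks.

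Of the 3 most variable narrow promoters, 1 had a single library far from all others. The minus-strand promoter at chr4:147442643-147442646 had 739.8, 843 and 36.1 CPM in FLT3-ITD and 683, 683 and 589.8 CPM in FLT3-ITD/D835Y. FLT3-ITD replicate 3 was thus far below the other 5 libraries, which lay close together. It was the 1 narrow promoter of 362 at 20 CPM and more at which a library lay over 2 (log2) away from all others, against 11 of the 4864 wider peaks. With that library the difference between the groups was 1.19 (SE 1.44, limma adjusted p = 0.61), and without it -0.28 (adjusted p = 0.14, the lowest over 16 refits, the highest being 1.0). The minus-strand promoter at chr13:77578191-77578196 had 4.97, 18.2 and 49.6 CPM in FLT3-ITD and 23.1, 44.6 and 101.3 CPM in FLT3-ITD/D835Y, with overlapping groups (limma adjusted p = 0.40). It passed in 1 of 16 refits, that with a term for the replicate number (adjusted p = 0.00041, the lowest, the highest being 1.0). At chr11:32196491-32196492, plus strand, the level was even in FLT3-ITD, at 16.6, 16.0 and 17.9 CPM, and uneven in FLT3-ITD/D835Y, at 60.4, 5.58 and 29.1 CPM (adjusted p = 0.82).

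The design asks which promoters are used differently once D835Y is added to FLT3-ITD. Of the 1464 measured narrow promoters, 334 changed (22.8%), 191 higher and 143 lower in FLT3-ITD/D835Y (limma, Benjamini-Hochberg adjusted p under 0.05 over all 19162 peaks). Among all measured peaks 24.4% changed, 14.1% higher and 10.4% lower, so the share among narrow promoters was close to the background. Weighted to the levels of the narrow set, 23.5% of wider peaks changed. The median difference was 0.04 for narrow promoters and 0.05 for all measured peaks, and among those that changed the median size was 0.76 and 0.71. At 544 narrow promoters (37.2%) the groups did not overlap, beside 41.8% of all measured peaks. A rise of at least 1 (log2) was found at 50 and a fall of at least that size at 43, beside 3.19% and 2.38% of all measured peaks.

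The split between higher and lower depended on the scaling and on single libraries. After TMM scaling, 170 narrow promoters were higher and 171 lower, and with DESeq2 116 and 133. Of all measured peaks, 25.6% changed with TMM and 18.5% with DESeq2. Among these, 2452 of 4908 were higher with TMM and 1702 of 3538 with DESeq2, against 2695 of 4680 in the main fit. The split thus moved over all peaks and not in the narrow set alone. The number changed was 222 without FLT3-ITD replicate 2, and the background then 16.1%. Without each of the other libraries of that group it was 18.3% and 16.8%, and without each of the FLT3-ITD/D835Y libraries 18.8%, 27.2% and 19.0%. Against a fold of 1.5, 48 passed (2.87% of all peaks), with a mean of at least 5 CPM 157 (28.4%), and with a term for the replicate number 295 (21.4%). The number higher was 122 without FLT3-ITD/D835Y replicate 1, and the number lower 94 without FLT3-ITD replicate 2 and 88 without FLT3-ITD replicate 3. These counts by direction are given without a background and are not read as a trait of the narrow set. Of the 1464, 82 reached 1 CPM in libraries of 1 group only, and 70 of these changed. Such peaks enter because 1 group is high, so they are no support for a difference. Without them 264 of 1382 changed (19.1%), beside 22.1% of all measured peaks and 22.4% of wider peaks chosen in the same way.

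**Figure D4:**
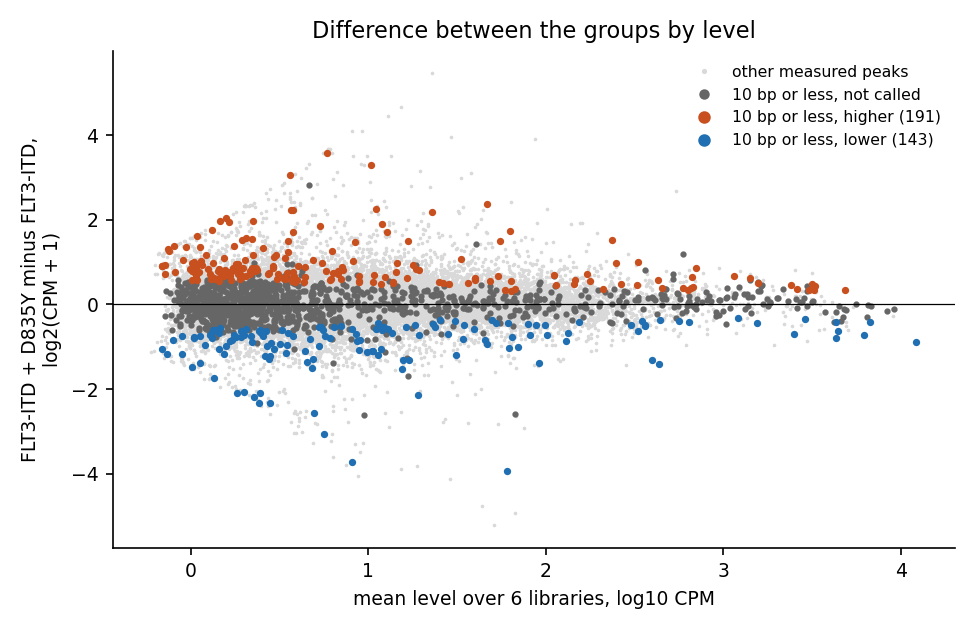
Difference between the groups (FLT3-ITD + D835Y minus FLT3-ITD, log2(CPM + 1)) against mean level (log10 CPM) for narrow promoters, with those called higher (191) in orange and lower (143) in blue and the rest in dark grey, over all wider measured peaks in light grey. Changed narrow promoters lie at every level, and those with the largest differences are below 100 CPM.

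By level, the share of narrow promoters that changed was 19.7% under 2 CPM, 19.8% at 2 to 5, 29.0% at 5 to 20, 24.7% at 20 to 100 and 27.0% at 100 CPM and more. For all measured peaks the shares were 17.5%, 22.8%, 27.5%, 28.4% and 29.9%. The share was lower in the narrow set at 2 to 5 CPM and in both classes from 20 CPM, and higher under 2 and at 5 to 20 CPM. Its median spread between replicates was larger in every class. The difference in shares, and the part of the spread in it, was not tested. Of the 54 changed promoters at 100 CPM and more, 30 were higher and 24 lower. These were 15% and 12% of the 200 narrow promoters there, beside 15.1% and 15.3% of 1178 wider peaks. Of the 54, 4 moved by at least 1, 2 up and 2 down, beside 14 and 5 of the wider peaks.

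The 10 narrow promoters with the largest rise, among those at 5 CPM or more whose groups did not overlap, were spread over 7 chromosomes. On the plus strand at chr19:31038353-31038362 there were 0, 0 and 0.18 CPM in FLT3-ITD, 2 tags in all, and 13.7, 9.94 and 11.3 CPM in FLT3-ITD/D835Y, 416 tags in all. The promoter was close to silent in the first group and present in each library of the second. The ratio of pooled tags was 159 with an exact 95% interval of 43.8 to 1318. It passed the level filter through FLT3-ITD/D835Y alone and so had to differ, and its values are a description with no test. It stood alone: the nearest measured peak on the opposite strand was 933517 bp away.

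The plus-strand promoter at chr2:150396232-150396241 rose from 1.66, 0.51 and 1.32 CPM to 21.2, 19.5 and 18.0 CPM, or from 35 to 707 tags, a pooled ratio of 15.4. It is a minor start beside a more active wider peak at chr2:150396163-150396219, 13 bp away, which rose from 11.3 ± 0.89 to 53.6 ± 4.6 CPM, a ratio of 4.67. The contrast between the pair was 1.14 (SE 0.20, limma adjusted p = 9.6e-04). On chromosome 12, the plus-strand promoter at chr12:105474449-105474455 stood at 13.7, 12.1 and 18.1 CPM in FLT3-ITD and at 77.6, 80.3 and 78.4 CPM in FLT3-ITD/D835Y. The difference was 2.37 (SE 0.14, limma adjusted p = 1.6e-07).

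The remaining 7 rose by 1.53 to 2.25, with limma's adjusted p between 8.4e-07 and 0.00016. On the plus strand, a rise from 3.31 ± 1.4 to 18.7 ± 1.1 CPM (SD, n = 3 each) was found at chr2:104399335-104399345. Levels went from 7.72 ± 1.6 to 38.1 ± 4.3 CPM at chr7:148154169-148154172, also on the plus strand. At chr10:79381246-79381253, plus strand, the level rose from 4.49 ± 0.65 to 19.6 ± 2.3 CPM. On chromosome 1, both on the minus strand, the promoter at chr1:182780991-182780995 rose from 1.74 ± 0.42 to 8.95 ± 2.1 CPM and that at chr1:155261357-155261363 from 28.1 ± 2.4 to 98.5 ± 28 CPM. In the last, FLT3-ITD/D835Y replicate 2 was lowest of its group, at 66.6 CPM against 120.4 and 108.6 CPM, and still above every FLT3-ITD library. At chr19:5912952-5912954, plus strand, it rose from 5.45 ± 1.3 to 19.9 ± 3.3 CPM. The most active of the 10, on the plus strand at chr16:23107827-23107834, had 139.2, 125 and 100.9 CPM in FLT3-ITD and 326, 411 and 323 CPM in FLT3-ITD/D835Y. In all 160 refits of these 10, of which the one at chr19:31038353-31038362 had to differ, the direction and the call were kept, with adjusted p up to 0.0045. The 10 were picked as called in these same libraries, so the refits are no independent support.

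The 10 with the largest fall included promoters nearly lost in the double mutation. The plus-strand promoter at chr2:84820615-84820619 had 94.4, 106 and 138 CPM in FLT3-ITD and 13.7, 1.65 and 9.39 CPM in FLT3-ITD/D835Y. It was lower in each library, and FLT3-ITD/D835Y replicate 2 was lowest of all. The difference was -3.93 (SE 0.75, limma adjusted p = 0.028), and the call was lost in 6 of 16 refits, whose adjusted p over all 16 ran from 4.2e-05 to 0.16. At chr10:61533762-61533768, plus strand, levels went from 16.9, 17.8 and 12.9 CPM to 0.84, 0 and 0.099 CPM, or from 425 to 11 tags. The minus-strand promoter at chr4:140366561-140366564 went from 11.5, 9.35 and 11.6 CPM to 0.76, 0 and 0.59 CPM, or from 305 to 15 tags. Both were low in every FLT3-ITD/D835Y library. They passed the level filter through FLT3-ITD alone and so had to differ, and their values are a description with no test.

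Of the other falls, the plus-strand promoter at chr18:68557782-68557790 went from 31.9 ± 2.8 to 6.55 ± 1.6 CPM and the minus-strand one at chr9:44480339-44480345 from 23.6 ± 0.88 to 7.57 ± 1.2 CPM (SD, n = 3 each), and both kept their call in all 16 refits. The most active of the 10, on the plus strand at chr10:39978269-39978276, had 649.7, 656 and 550.5 CPM in FLT3-ITD and 311, 133 and 305 CPM in FLT3-ITD/D835Y. Replicate 2 again was the lowest of its group, and the adjusted p of 0.049 (limma) passed the threshold in 8 of 16 refits, from 3.2e-06 to 0.61. At chr1:180567027-180567035, plus strand, 572 ± 145 CPM became 228 ± 59 CPM, and at chr7:133940945-133940949, minus strand, levels went from 134 ± 34 CPM to 50.4 ± 13 CPM. Without FLT3-ITD/D835Y replicate 2 both missed the threshold (limma adjusted p = 0.064 and 0.071, over all refits 4.8e-17 to 0.24 and 2.3e-22 to 0.076). The minus-strand promoters at chr5:73019176-73019181 (24.4 ± 4.2 to 9.53 ± 3.6 CPM) and chr1:48519136-48519137 (23.0 ± 6.5 to 8.54 ± 1.8 CPM) fell by -1.32 and -1.31 (limma adjusted p = 0.0065 and 0.0015). Against a fold of 1.5 neither passed (limma adjusted p = 0.23 and 0.099, the highest over 16 refits, the lowest being 1.8e-12 and 5.4e-12).

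**Figure D5:**
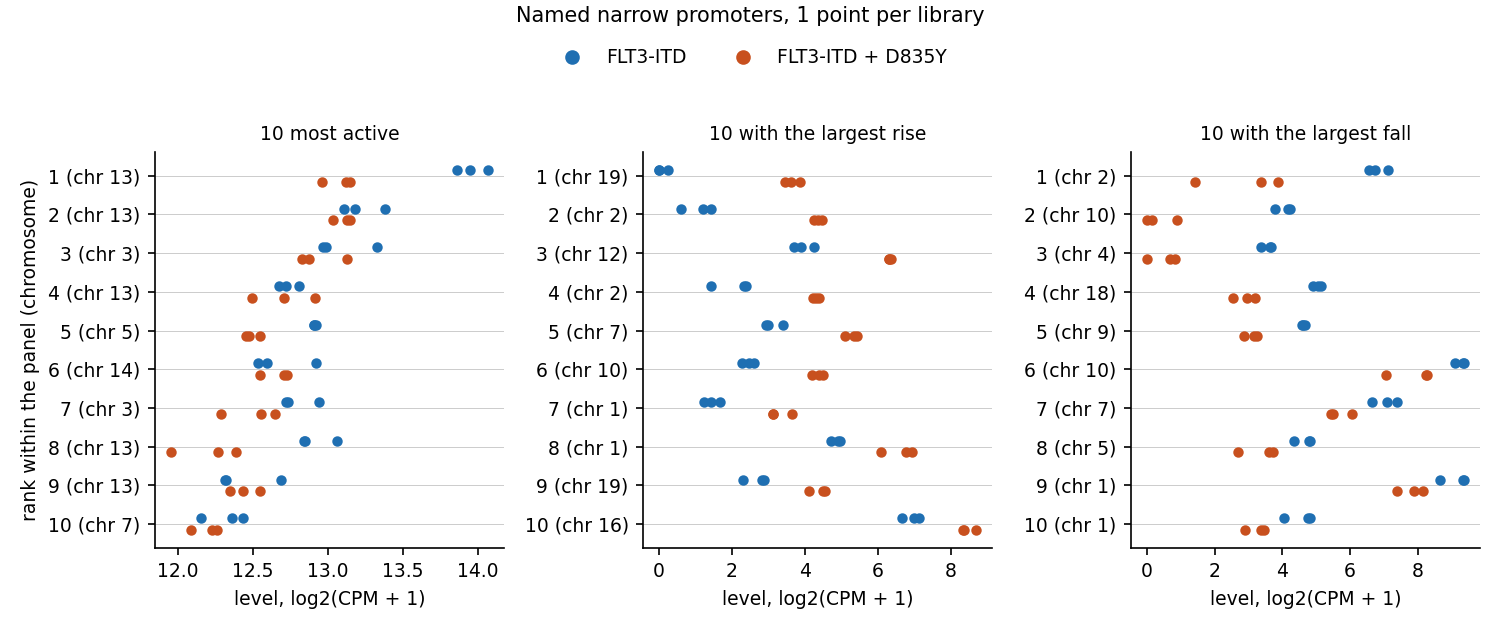
Level in each library, log2(CPM + 1), of the 10 most active narrow promoters and of the 10 with the largest rise and the largest fall (FLT3-ITD in blue, FLT3-ITD + D835Y in orange), named by rank and chromosome. Rises and falls show groups that do not overlap, which the choice of these promoters required, while 6 of the 10 most active overlap.

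Narrow promoters were also compared with the peak next to them. The 707 narrow promoters with a measured same-strand peak within 500 bp were set against the nearest one by limma on the difference of both log2 values, fitted over all 10031 peaks with such a neighbour. Of the 707, 53 (7.496%) changed by another amount than their neighbour, beside 8.44% of all peaks tested so, a share near the background. Where both changed, 74 of 76 pairs (97.4%) went in the same direction, beside 879 of 898 (97.9%) of all peaks tested, so neither count sets narrow promoters apart. The count was 25 without FLT3-ITD replicate 2 (4.27% of all peaks tested), 35 without FLT3-ITD replicate 3 (4.73%) and 25 without FLT3-ITD/D835Y replicate 3 (3.90%). Without FLT3-ITD replicate 1 the background was 6.87%, without FLT3-ITD/D835Y replicates 1 and 2 it was 6% and 7.17%, and with a term for the replicate number 6.51%. Of the 53, 16 had a mean under 2 CPM, where adding 1 compresses differences, so pooled tags are given beside them.

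Of the 5 with the largest contrast, 4 had a mean under 2 CPM. All 5 reached 1 CPM in libraries of 1 group only, so their values are given as a description, with no test. On the plus strand, chr5:136145847-136145854 rose from 0.18 ± 0.10 to 1.20 ± 0.074 CPM, a pooled tag ratio of 6.58 (95% interval 2.61 to 21.3), and its neighbour 43 bp on, chr5:136145897-136145912, from 0.77 ± 0.25 to 19.0 ± 1.4 CPM, a ratio of 23.7 (15.5 to 38.1). Both were higher in FLT3-ITD/D835Y, and the intervals of the ratios overlapped. On chromosome 14, the plus-strand narrow promoter at chr14:66915384-66915388 had 0.49 ± 0.18 CPM in FLT3-ITD and 1.56 ± 0.19 CPM in FLT3-ITD/D835Y, a ratio of 3.06 (1.68 to 5.95). The wider peak at chr14:66915866-66915920 had 13.1 ± 1.6 and 8.37 ± 1.4 CPM, a ratio of 0.661 (0.566 to 0.773). This was the 1 pair of the 5 whose intervals did not overlap. On the minus strand, chr8:88224822-88224823 had 0 tags in every FLT3-ITD library and 1.34, 2.00 and 1.48 CPM in FLT3-ITD/D835Y. Its neighbour at chr8:88224784-88224799 had 1 tag in all in FLT3-ITD and 6.29, 8.44 and 5.24 CPM in FLT3-ITD/D835Y. With so few tags in FLT3-ITD the intervals of both ratios overlapped.

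The remaining 2 were lower in FLT3-ITD/D835Y together with their neighbours. The narrow promoter at chr10:61533762-61533768, given above among the falls, had a ratio of 0.0198 (95% interval 0.00981 to 0.0358) and its neighbour at chr10:61534199-61534208 0.0153 (3.8e-04 to 0.0892). The narrow promoter at chr18:78320119-78320129, minus strand, went from 1.40 ± 0.11 to 0.076 ± 0.072 CPM, a ratio of 0.0604 (0.0119 to 0.190), and its neighbour at chr18:78320063-78320077 from 16.2 ± 0.87 to 0.80 ± 0.50 CPM, a ratio of 0.0486 (0.0319 to 0.0712). Intervals overlapped in these pairs too. The intervals cover counting error only and their overlap is no test of a contrast. The part of the pseudocount in these contrasts was not tested.

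Among the 27 of the 53 with a mean of at least 5 CPM, the narrow promoter and its neighbour had differences of opposite sign in 12. That count takes the sign alone, also where a neighbour hardly changed, as at chr2:164597362-164597379 (0.0076, limma adjusted p = 0.98). The same count was not made for wider peaks, so it is not read as a trait of the narrow set. Both peaks passed on their own in 5 of the 27 pairs. In 1 pair both members passed with opposite signs, on the plus strand of chromosome 2. The narrow promoter at chr2:112102485-112102494 had 45.8, 52.7 and 77.1 CPM in FLT3-ITD and 40.8, 24.0 and 31.4 CPM in FLT3-ITD/D835Y, and fell by -0.85 (limma adjusted p = 0.027). The peak at chr2:112102114-112102131, 354 bp away, had 710, 590 and 755 CPM in FLT3-ITD and 935, 807 and 1031 CPM in FLT3-ITD/D835Y, and rose by 0.43 (adjusted p = 0.025). The contrast was -1.28 (SE 0.19, limma adjusted p = 1.9e-04). At chr11:41312638-41312642, plus strand, the narrow promoter fell from 55.5, 62.5 and 66.7 CPM to 37.0, 25.4 and 32.8 CPM, while the peak at chr11:41312195-41312229 had 29.1 ± 0.40 and 35.9 ± 3.9 CPM and did not pass on its own (limma adjusted p = 0.099). The contrast of both was -1.24 (SE 0.19, adjusted p = 2.5e-04). The narrow promoter was the stronger of the pair in every FLT3-ITD library and, by little, in 2 of the 3 FLT3-ITD/D835Y libraries, and the weaker in replicate 2 (25.4 against 40.2 CPM). These 2 pairs were chosen after their values were seen.

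Some narrow promoters had tags in 1 group only. A promoter was counted where 1 group reached 1 CPM in each library and the other had no tag at all. Of the 1464 measured, this held for 6 narrow promoters of FLT3-ITD/D835Y, with means of 1.49 to 7.29 CPM, and for 0 of FLT3-ITD. Among the 17698 wider peaks it held for 31 and 6, and no difference in share was tested. A count of 0 is easier to reach at lower depth. The shallowest library was FLT3-ITD replicate 2 with 5884258 tags, while FLT3-ITD/D835Y ranged from 10114212 to 13977941. Such promoters also pass the level filter through 1 group alone, so these counts are a description and support no direction. The most active, on the plus strand at chr11:100940993-100941003, had 6.46, 8.30 and 7.12 CPM. At chr1:181776185-181776193, plus strand, there were 3.44, 2.50 and 3.56 CPM, and at chr11:5474110-5474118, plus strand, 2.77, 2.79 and 3.26 CPM. The others were the plus-strand promoters at chr7:52814756-52814761 (2.18 ± 1.1 CPM) and chr14:54756415-54756425 (1.49 ± 0.15 CPM) and the minus-strand one at chr8:88224822-88224823. No fold is given for them, since the other group had no tags.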

How the data were processed

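CAGE tables of 6 Ba/F3 libraries (3 FLT3-ITD, 3 FLT3-ITD/D835Y) were used. Per the labels, total RNA from an RNeasy Mini kit went into nAnT-iCAGE libraries. The authors deposited CPM per peak and library: each library sums to 1000000, and 100% of values were whole multiples of the smallest one (tolerance 0.01), which gives the tags. Per the submitters' processing notes, TopHat2 2.0.14 and edgeR 3.24.3 were among the tools and hg19 and mm9 among the builds. The sources used here do not say how peaks were defined.

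Peaks at 1 CPM or more in at least 3 libraries were tested with limma 3.58.1 (trend, robust; R 4.3.3) on log2(CPM + 1) in a model of the 2 groups, with Benjamini-Hochberg adjustment over all 19162 peaks (threshold 0.05, two-sided). The neighbour test used the mean level of both peaks as the trend. Alternatives on recovered tags used edgeR 4.0.16 and DESeq2 1.42.0. The tests were tried on simulated data. Named promoters are the 10 most active; the 10 largest rises and 10 largest falls among called peaks of at least 5 CPM with groups that do not overlap; the 5 largest contrasts with a neighbour; and the 3 most variable of at least 20 CPM. The members and lists were chosen with earlier results of these data known. The planned permutation test of the share of tags is not reported, since it is a sum over the members. Planned gene lists, cell type markers and sequence counts were not used, since peaks were not paired with genes. Ratios of pooled tags carry exact 95% intervals. Between replicates of 1 group, tags varied 4.04 to 20.7 times as much as sampling alone gives, so each library was counted once.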

Additional observations from a re-analysis of the deposited data

How the results depend on the processing

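Under the alternatives, the number of changed narrow promoters was 334, and 157 (79 higher, 78 lower) with a mean of at least 5 CPM, 48 (31 and 17) against a fold of 1.5, 129 (71 and 58) at 5 bp or less and 962 (534 and 428) at 15 bp or less, since these settings test fewer or more peaks or a larger change. The counts at 5 and 15 bp, and that without chromosome 13 below, are given without the number tested. They are therefore not set against the 24.4% of all measured peaks that changed. With DESeq2 116 were higher. In the main fit, 121 were higher among the 930 narrow promoters that stood alone within 500 bp or were the most active of a group. These were 102 of 757 standing alone and 19 of 173 most active ones, beside 1348 of 8374 and 594 of 4017 wider peaks. No difference in these shares was tested. Leaving out single libraries gave 222 to 384 changed, 122 to 227 higher and 88 to 157 lower; the cause was not tested. The median difference moved by less than the SD between libraries in every setting, but its sign rested on the scaling. It was 0.040 in the main fit, -0.0025 with TMM, -0.0039 with DESeq2 size factors, -0.0041 with edgeR and 0.0020 with DESeq2. For all measured peaks it was 0.054, 0.0070, 0.0055, 0.011 and 0.0099 in the same order. The difference in the share of tags was 0.43 points without chromosome 13 and 0.085 at 5 bp or less, the opposite sign of -1.09, -0.36 without the most active promoter, -2.19 with TMM scaling and -1.61 to -0.21 with a library left out. The median level was 0.074 CPM with no filter, 34.7 at 5 CPM or more, 4.88 at 5 bp or less and 2.91 at 15 bp or less. The median SD was 0.28 with a pseudocount of 0.5 and 0.21 to 0.24 with a library left out. Contrasts with a neighbour numbered 25 to 58 with a library left out. With the replicate block (replicate number in the model), 295 narrow promoters changed and 45 contrasts were called. The correlation of deviations between libraries of the same number was -0.0053, 0.019 and 0.19, so the numbers were not taken to pair libraries. Of 588 refits of the 37 named promoters, 546 kept direction and call, 27 lost the call, 2 gained one and 13 changed sign. The rises and falls were picked as called in these same libraries, so a kept call was largely built in. Some named promoters also passed the level filter through 1 group alone and had to differ. These counts are thus a description and no support for a difference. The sign changed for chr13:21842404-21842412 (-0.055 with TMM, -0.057 with DESeq2 size factors, -0.058 with edgeR, -0.060 with DESeq2, and -0.062 to 0.126 over the libraries left out), for chr13:21924063-21924067 (-0.134 to 0.075 over the libraries left out), for chr14:106081041-106081048 (-0.098 to 0.098 over the libraries left out), for chr4:147442643-147442646 (-0.28 without FLT3-ITD replicate 3, up to 1.97 without replicate 2) and for chr11:32196491-32196492 (-0.34 without FLT3-ITD/D835Y replicate 1, up to 1.27 without replicate 2), none of which passed under any of these settings. Counts of changed promoters without chromosome 13 (317) or among those measured in both groups (264), the split at 1000 CPM, and the spread from 20 CPM with its centring were chosen after seeing the data. Low promoters are limited by depth, at up to 0.170 CPM for 1 tag.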

Other observations

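The median difference of narrow promoters varied between chromosomes. Over 20 chromosomes, the median difference of narrow promoters had the same sign as that of wider peaks in 17, with Pearson's r of 0.885 between both medians, a description over points that share the 6 libraries. On chromosome 19, 24 of 72 narrow promoters rose and 2 fell, 33.3% and 2.78%, beside 46.9% and 2.63% of 723 wider peaks (median differences 0.30 and 0.46). On chromosome 9, 19 of 99 fell and 4 rose, 19.2% and 4.04%, beside 27.5% and 3.18% of 1037 wider peaks (medians -0.25 and -0.26). On chromosome 10, 15 of 76 fell and 7 rose, 19.7% and 9.21%, beside 16.9% and 3.66% of wider peaks (medians -0.13 and -0.17). None of these differences in share was tested. The signs differed on chromosomes 3 (0.01 and -0.05), 7 (-0.01 and 0.07) and 14 (0.05 and -0.12). Narrow promoters made up between 5.97% of measured peaks on chromosome 2 and 10.0% on chromosome 13.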
